A study of Mus musculus with 2 samples.

Results

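Alpha cells were taken as the droplet barcodes with a minimum share of glucagon message, not exceeded by insulin, somatostatin or pancreatic polypeptide message. A barcode was a member if it held at least 200 genes and at most 20% mitochondrial unique molecular identifiers (UMIs, each 1 counted RNA molecule), if Gcg made up at least 3% of its UMIs and was not exceeded by Ppy, and if Ins1 plus Ins2 and Sst each stayed under 2%. These rules selected 405 of 4185 kept barcodes in the library from mice fed HAMS and 267 of 4628 in the library from mice fed HAMSAB, 672 of 8813 in all. Pancreatic islets of NOD mice, whose islets are invaded by immune cells before diabetes, were profiled by droplet-based single-cell RNA sequencing. Mice were 5 weeks old when the diet began and received HAMS or HAMSAB for 5 weeks. HAMS denotes high-amylose maize starch, and HAMSAB its acetylated and butyrylated form. Each diet is represented by 1 library made from an unstated number of mice, so no diet difference has a replicate check or a test, and all 95% intervals cover counting error only.

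Alpha cells secrete glucagon, which raises blood glucose by acting on the liver. They cleave proglucagon with the convertase encoded by Pcsk2, store the hormone in granules built from granins, and maintain their identity through transcription factors such as Irx2. Gamma cells make pancreatic polypeptide from Ppy and share much of the alpha program, while beta cells make insulin and delta cells make somatostatin.

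The 2 libraries contained 3599756 and 4254040 UMIs, with medians of 704 and 705 per kept barcode. In the alpha members the sums were 293353 UMIs in HAMS and 213237 in HAMSAB, with medians of 599 and 655 per barcode, so values below rest on sums over members given in CPM, the UMIs of a gene per 1000000 UMIs of the sum. Doublets were neither called nor removed. The libraries shared 6 barcode sequences, none of them in an alpha member. Barcodes with at least 5 UMIs of leukocyte markers carried Gcg at 1214 CPM in HAMS and 1050 CPM in HAMSAB. Gcg was detected in only 12.1% and 6.49% of them, so these levels do not measure free RNA alone. Free RNA was not separated from barcodes that mix cells. 5 of the 430 leukocyte-marked HAMS barcodes and 7 of the 786 in HAMSAB were also alpha members.

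The members were chosen by the shares of Gcg, Ppy, Ins1, Ins2 and Sst in a barcode, so the levels of these genes are descriptions only. Gcg stood at 109885 CPM in the HAMS members and 159775 CPM in the HAMSAB members (log2 ratio 0.54, 95% interval 0.52 to 0.56). The median share of a barcode's UMIs was 9.20% in HAMS (lowest 3.01%, highest 45.2%) and 14.0% in HAMSAB (lowest 3.04%, highest 54.3%), with wide overlap between the libraries. Gcg reached 10% in 181 of 405 HAMS members and 195 of 267 HAMSAB members. At the edge of the rule, the nearest barcodes outside held 2.98% Gcg in both libraries. The sequence shown here is the 250 bases before the RefSeq start of Gcg on the minus strand of GRCm38.p6, chr2:62483654-62483903, because this promoter drives the message by which all members were chosen. Capitals mark a TATAAA box from 24 to 19 bases before the start.

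Gcg: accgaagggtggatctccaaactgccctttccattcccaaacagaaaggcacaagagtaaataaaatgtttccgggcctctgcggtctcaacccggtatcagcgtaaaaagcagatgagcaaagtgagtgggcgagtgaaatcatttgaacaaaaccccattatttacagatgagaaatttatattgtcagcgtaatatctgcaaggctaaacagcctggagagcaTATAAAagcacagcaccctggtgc

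TATAAA on the gene's own strand occurs in 7.59% of the 32851 RefSeq promoter windows of this length.

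**Figure D1:**
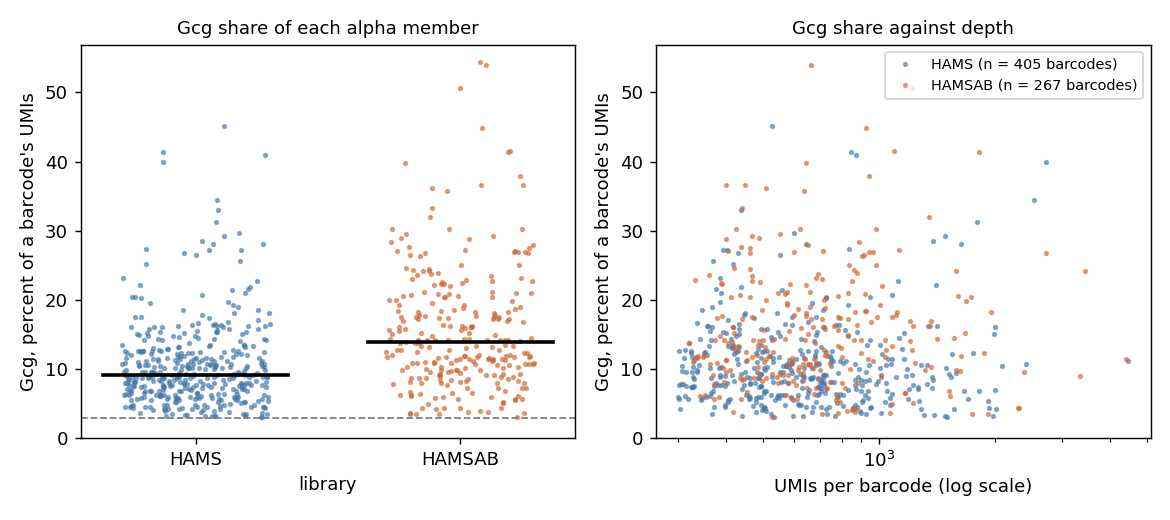
Left, Gcg as percent of UMIs in each alpha member by library (points spread sideways at random, black bar the median, dashed line the 3% rule); right, the same share against UMIs per barcode on a log axis. Medians are 9.20% for the 405 HAMS members and 14.0% for the 267 HAMSAB members, and the 2 clouds overlap at every depth.

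As a share of kept barcodes, alpha members were 9.68% of the HAMS library (Clopper-Pearson 95% interval 8.80 to 10.6) and 5.77% of the HAMSAB library (5.11 to 6.48). Among barcodes carrying any islet hormone at 3% or more the order was the other way, 17.7% (16.2 to 19.3) in HAMS and 19.5% (17.4 to 21.7) in HAMSAB, with overlapping intervals. With Gcg required at 10%, the shares of kept barcodes were 4.32% and 4.21%. With at least 500 genes per barcode they were 8.50% and 3.93%. The lower share in HAMSAB was thus not seen among hormone-carrying barcodes, and the gap was small at the higher Gcg minimum.

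The other hormones were low in the members. Of the kept barcodes with Gcg at 3% or more, 507 in HAMS and 290 in HAMSAB, the rule left out 2 and 0 for more Ppy than Gcg, 55 and 7 for insulin, and 49 and 17 for Sst, some for more than 1 reason. Ppy was detected in 44 HAMS and 15 HAMSAB members and reached 1% of UMIs in 12 and 1. Summed over members, Ppy was 972 CPM in HAMS and 347 CPM in HAMSAB, against 91994 and 83065 CPM in barcodes ruled gamma. Ins2 was 1101 and 483 CPM in members and 1667 and 3468 CPM in leukocyte-marked barcodes. Sst was 637 and 333 CPM in members and 1130 and 538 CPM there. The rule capped both hormones in members only, so these sums do not compare members with background. Ins2 was detected in 30.4% and 20.6% of members and 28.8% and 21.0% of leukocyte-marked barcodes. For Sst the shares were 10.9% and 5.99% of members against 8.84% and 4.58%.

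The label was checked against Ttr, Irx2 and Gc, the 3 alpha markers that the rule did not use. Ttr, which encodes the transport protein transthyretin, was detected in 35.3% of HAMS and 61.4% of HAMSAB members but in 1.63% and 2.04% of leukocyte-marked barcodes, whose median depth was higher (1058 and 1019 UMIs). Irx2, an alpha transcription factor, was detected in 9.88% and 13.9% of members and in 0.465% of the leukocyte-marked HAMS barcodes. It had a UMI in 0 of the 786 leukocyte-marked HAMSAB barcodes, which allows a share of up to 0.382% by a floor of 3 barcodes and of 0.468% by the upper Clopper-Pearson bound. Gc, a gene for the carrier of vitamin D in blood, was detected in 8.40% and 13.5% of members against 0.233% and 0.891%. All 3 markers were detected in a larger share of members than of leukocyte-marked barcodes in both libraries. Gc separated the members from leukocytes but not from the other endocrine classes, as its levels below show.

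To place alpha members among the endocrine cells, UMIs were summed per class and library for alpha members and for barcodes ruled beta (Ins1 plus Ins2 at least 10%; 316 in HAMS and 293 in HAMSAB), delta (Sst at least 3%; 376 and 311) and gamma (Ppy at least 3% and above Gcg; 44 and 39), each with the other hormones under 2% (Gcg excepted in gamma). The 5 hormone genes were removed, and the 8 sums were fitted together in edgeR's quasi-likelihood test with library as a term. The 2 libraries, which differ in diet, are the only replicates of each class, and the fit leaves 3 residual degrees of freedom. Its p-values do not measure spread between mice. CPM values of single genes in this comparison are of totals without the hormones. Of 4661 genes tested at an adjusted p under 0.05, 331 (7.1%) were higher and 449 (9.63%) lower in alpha than in beta, 220 (4.72%) higher and 285 (6.11%) lower than in delta, and 59 (1.27%) higher and 17 (0.365%) lower than in gamma. DESeq2 on the same sums called fewer, 108 and 181 against beta, 81 and 105 against delta, and 20 and 9 against gamma. The gamma sums hold the fewest barcodes, and without the TMM scaling the gamma split was 37 higher and 33 lower. Leukocyte markers summed to 262 and 422 CPM in alpha, 143 and 339 in beta, 234 and 307 in delta, and 32.3 and 134 in gamma. Without barcodes holding 2 or more leukocyte UMIs the calls were 315 and 415 against beta, 223 and 281 against delta, and 42 and 10 against gamma.

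Only 20 genes (0.429%) were higher in alpha than in each of the other 3 classes, comparisons that share the alpha sums, and 2 (0.0429%) were lower than in each. Irx2 (chr13:72628820-72634198 in GRCm38) was nearly limited to the alpha members among these 4 classes. It had 52 UMIs in HAMS and 47 in HAMSAB alpha members, 1 and 0 in beta, 2 and 0 in delta, and 0 in gamma, where a floor of 3 UMIs over both libraries makes it at least 4.15-fold higher in alpha. Its adjusted p was 1.56e-16 against beta, 3.99e-15 against delta and 0.00089 against gamma by edgeR. Ttr was at 1065 and 2544 CPM in alpha, 251 and 330 in gamma, 323 and 587 in beta and 24.2 and 10.04 in delta. Its lowest alpha value exceeded all other sums, with log2 differences of 1.89, 6.51 and 2.85 against beta, delta and gamma (edgeR adjusted p of 5.40e-14, 1.85e-67 and 5.62e-13).

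The other genes of this set have varied roles. Tmsb15b2, of the thymosin beta family of actin-binding peptides and thus a gene with close relatives that counting could confuse, stood at 300 and 330 CPM in alpha members. Its highest level elsewhere was 36.6 CPM, in gamma, where each library held only 1 of its UMIs. Lpl, which encodes lipoprotein lipase, was 807 and 660 CPM in alpha, 358 and 330 in gamma, 144 and 87.0 in beta and 20.1 and 15.1 in delta. Its call against gamma was lost under DESeq2 (adjusted p = 0.146) and without the TMM scaling (adjusted p = 0.128). Slc7a2, a transporter of cationic amino acids, was 611 and 436 CPM in alpha against 107 and 183 in gamma, 249 and 210 in beta and 48.3 and 35.1 in delta. Gnas, which encodes the stimulatory G protein alpha subunit that couples hormone receptors to cyclic AMP, was abundant in all classes and highest in alpha, at 5988 and 6306 CPM, with log2 differences of 1.79 against beta, 0.90 against delta and 1.46 against gamma (edgeR adjusted p of 7.29e-12, 0.00191 and 6.43e-06). Rgs5, a regulator of G protein signalling also known from pericytes, had 51 and 43 UMIs in alpha members, 0 in gamma, 7 and 0 in beta and 20 and 3 in delta. Its calls against beta and delta were lost under DESeq2 (adjusted p of 0.212 and 0.692). The other genes included the long noncoding RNA Snhg11, Fam107b, the transcription factor subunit Nfyb and the kinase gene Pim1. Under DESeq2 the calls of Fam107b and Nfyb against beta were also lost (adjusted p of 0.133 and 0.211), and 5 of the 20 genes still passed against all 3 classes, DESeq2 giving no adjusted p against gamma for some of the others, Fam107b and Nfyb among them.

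Reg1, Ctrb1 and Pnlip, genes of the acinar marker list, also passed against all 3 classes, but they have 0 UMIs in the HAMS alpha members. In HAMSAB members they have 73, 72 and 51 UMIs, of which 72, 68 and 49 lie in 1 barcode each. Ctrb1 and Pnlip have 0 UMIs in all 4 classes of the HAMS library, so no direction was measured there. With barcodes holding 10 or more UMIs of another cell type's markers left out (3 alpha members per library) 15 of the 20 genes still passed, without these 3 and without Nfyb and mt-Nd1. That filter counted acinar, immune, and endothelial and stromal markers, but not ductal markers or those of other endocrine cells. Scg2, which encodes secretogranin II, was 1 of the 2 genes lower than in every class. It had 542 and 531 CPM in alpha, 2577 and 2087 in gamma, 2208 and 5104 in beta, and 3462 and 3683 in delta, with log2 differences of -2.74, -2.71 and -1.84 against beta, delta and gamma (edgeR adjusted p of 3.03e-25, 8.59e-25 and 2.07e-08). The other gene was the transcription factor gene Pbx3, with 3 and 2 UMIs in alpha members, whose call against beta was lost under DESeq2 (adjusted p = 0.177).

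**Figure D2:**
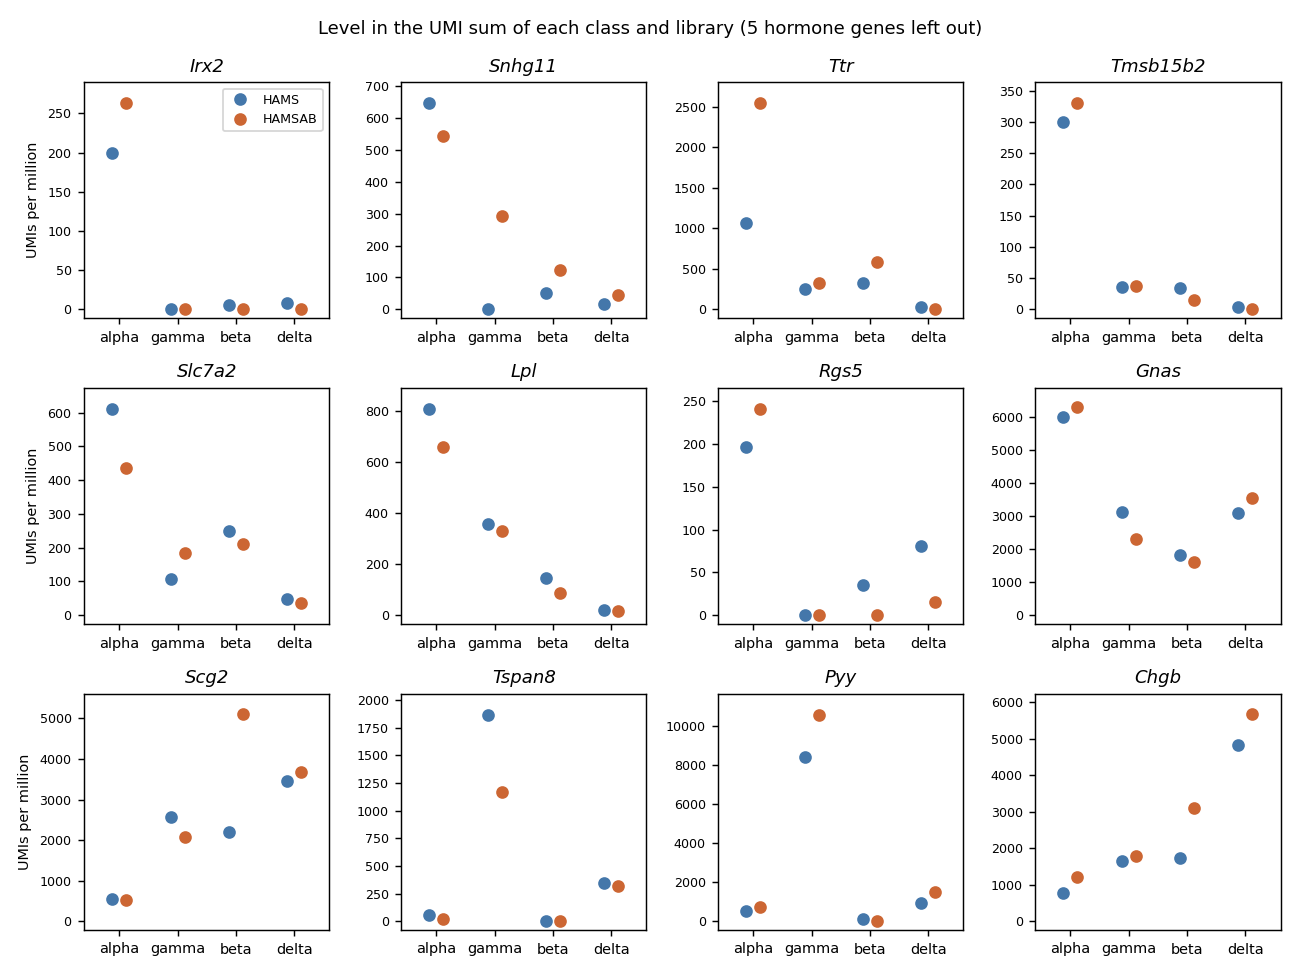
Level (CPM) of 12 genes in the summed barcodes of each class and library (1 point per sum, hormone genes left out of the totals, each panel on its own linear axis). Irx2, Snhg11, Ttr, Tmsb15b2, Slc7a2, Lpl, Rgs5 and Gnas are highest in both alpha sums, Scg2 and Chgb lowest in both, and Tspan8 and Pyy peak in gamma.

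Of the 24 alpha identity genes tested, 12 were higher and 2 lower in alpha than in beta. Against delta 12 were higher and 5 lower, and against gamma 4 were higher and 1 lower. Of all genes, 7.1% were higher and 9.63% lower than in beta, 4.72% and 6.11% than in delta, and 1.27% and 0.365% than in gamma. The median log2 differences of the identity genes were 0.64, 0.66 and 0.62, beside -0.02, -0.01 and 0.23 over all genes. Etv1, an ETS family factor, was higher than in beta (log2 difference 4.25, edgeR adjusted p = 5.39e-34) and stood at 823 and 1391 CPM in gamma against 596 and 811 in alpha. Gc was 154 and 263 CPM in alpha, 286 and 293 in gamma, 157 and 156 in delta, and 49.7 and 312 in beta, and passed in no comparison. The membrane protein gene Tm4sf4 was lower in alpha than in beta (log2 difference -0.96, edgeR adjusted p = 0.00067) and higher than in delta (0.78, adjusted p = 0.0125). Isl1 and Rfx3, transcription factors shared by islet cells, were lower in alpha than in delta, with log2 differences of -1.14 and -1.28.

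Against gamma, the genes lower in alpha were led by Tspan8, a tetraspanin. It had 53.8 and 16.8 CPM in alpha and 1861 and 1172 CPM in gamma, a log2 difference of -5.06 (edgeR adjusted p = 4.60e-34). Pyy, which encodes peptide YY, was 519 and 716 CPM in alpha and 8412 and 10545 CPM in gamma, with a log2 difference of -3.67 (edgeR adjusted p = 5.60e-43). Folr1 (a folate receptor gene), Wls (needed for Wnt secretion), Tspan12 and Cd9 were also lower, the call of Cd9 being lost with no filter on low counts (adjusted p = 0.143). Genes with no UMI in gamma but present in alpha included Dnase1l3 (48 and 27 UMIs in alpha, at least 3.15-fold higher against the floor) and the RNA-binding protein gene Rbm3 (43 and 38 UMIs, at least 3.40-fold). DESeq2 gave neither an adjusted p against gamma.

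Genes of the unfolded protein response, which fold and degrade proteins in the endoplasmic reticulum, were mostly lower in alpha members than in beta. Of 23 tested, 21 were lower in alpha than in beta and none higher, with a median log2 difference of -1.62, against the 9.63% of all genes that were lower. The chaperone gene Hspa5 was 1291 and 1750 CPM in alpha and 3814 and 4723 CPM in beta (log2 difference -1.54, edgeR adjusted p = 1.30e-09). Ddit3, which encodes the stress-induced factor CHOP, was 53.8 and 61.5 CPM in alpha and 587 and 566 in beta (log2 difference -3.39, edgeR adjusted p = 1.84e-20). Hyou1, another chaperone gene, was 154 and 179 CPM against 1572 and 892. No alpha sum of these 3 genes reached any beta sum. Xbp1 and Canx did not pass, with log2 differences of -0.36 and -0.53. DESeq2 called 19 of the 23 lower. Against delta 2 of the 23 were lower, beside 6.11% of all genes, and against gamma 1 was higher, beside 1.27%. The difference between the comparisons was not tested.

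MHC class II genes, which present antigen to CD4 T cells, went the other way. All 5 tested were higher in alpha than in beta (7.1% of all genes were) and none passed against delta. Against gamma 3 were higher (1.27% of all genes were). Cd74, the invariant chain, was 1545 and 1996 CPM in alpha, 597 and 562 in beta, 1799 and 2439 in delta and 537 and 659 in gamma. Its log2 difference was 1.55 against beta (edgeR adjusted p = 1.61e-09) and -0.24 against delta (0.625). In totals with hormones, Cd74 was 1370 and 1674 CPM in alpha members and 6701 and 5634 CPM in leukocyte-marked barcodes. With all barcodes holding 2 or more leukocyte UMIs left out, 4 of the 5 were still higher than in beta. With Gcg at least 10% the number was 2, and under DESeq2 it was 3.

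**Figure D3:**
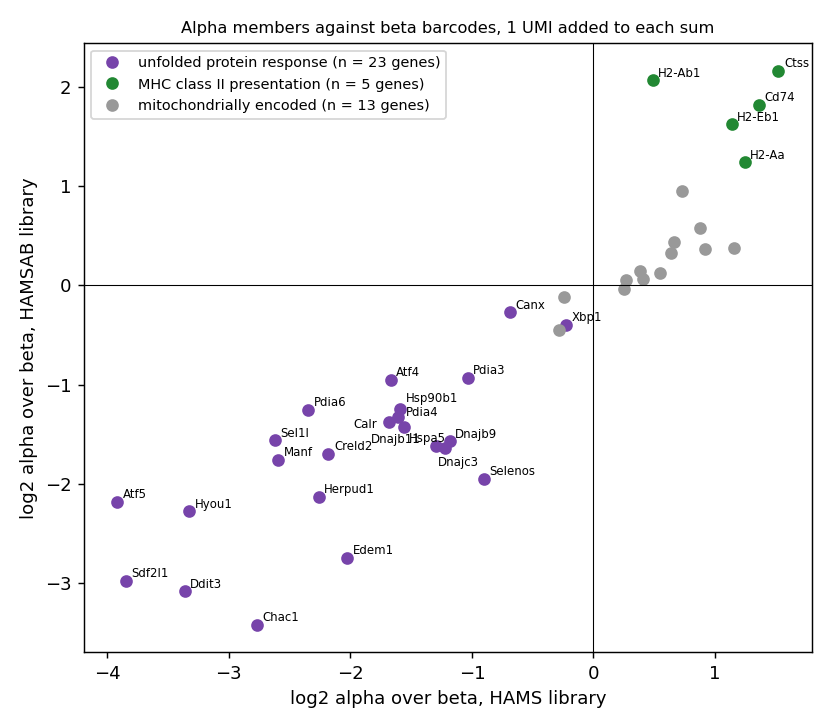
Log2 difference of alpha members over beta barcodes in the HAMS library (x) and the HAMSAB library (y), with 1 UMI added to each sum, for unfolded protein response, MHC class II and mitochondrially encoded genes. All 23 unfolded protein response genes lie below 0 in both libraries and all 5 MHC class II genes above 0 in both.

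Of 33 granule and processing genes tested, 3 were higher and 9 lower than in beta, where 7.1% and 9.63% of all genes were. Against delta 8 were higher and 4 lower, beside 4.72% and 6.11% of all genes, and against gamma 2 were higher and 1 lower, beside 1.27% and 0.365%. Chga, which encodes chromogranin A, was 11245 and 17554 CPM in alpha, 14129 and 10937 in beta, 2633 and 2233 in delta and 5620 and 5126 in gamma. It was higher than in delta by 2.59 and than in gamma by 1.71 on the log2 scale (edgeR adjusted p of 4.85e-19 and 3.48e-07). Chgb, which encodes chromogranin B, was lower in alpha than in beta and delta, at 765 and 1224 CPM in alpha, 1736 and 3103 in beta and 4823 and 5685 in delta (log2 differences -1.32 and -2.42, edgeR adjusted p of 1.15e-06 and 3.63e-21). The zinc transporter gene Slc30a8 was higher than in delta by 4.63 (edgeR adjusted p = 1.34e-21) and did not pass against beta, at 411 and 268 CPM against 358 and 373. Of 8 amino acid transport and sensing genes, 5 were higher in alpha than in delta (4.72% of all genes were) and none lower. Against beta 2 were higher and 1 lower, beside 7.1% and 9.63% of all genes, and against gamma 1 was higher, beside 1.27%. Slc38a4, a neutral amino acid carrier, was 146 and 229 CPM in alpha against 12.1 and 10.04 in delta (log2 difference 3.97, edgeR adjusted p = 7.65e-11). Among 15 fuel sensing and channel genes, 3 were higher and 4 lower than in beta, beside 7.1% and 9.63% of all genes. The higher ones were Gnas, Gria2 (a glutamate receptor subunit; log2 difference 3.87) and Scn3a (a sodium channel; 3.06). The lower ones included G6pc2 (-5.47) and the glucose transporter gene Slc2a2 (-4.35), both also on the beta marker list.

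The second question was how alpha members differed between the diets. Of 1523 genes with at least 50 UMIs, 26 (1.71%) had a ratio of 2 or more with HAMSAB as the higher library, and 46 (3.02%) with HAMS as the higher. With the 5 hormones left out of the totals these numbers were 31 and 37, and with each barcode weighted equally 27 and 61. The counting interval lay above 0 for 105 of the 1523 genes (6.89%) and below 0 for 242 (15.9%). Over the 3629 genes with at least 20 UMIs the median log2 ratio of HAMSAB over HAMS was -0.11 and 43.2% were above 0. Gcg alone takes a larger share of the HAMSAB total, and with the 5 hormones left out of the totals that median was -0.03, so the totals shift all ratios by a small amount. The log2 ratios below use the full totals.

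The largest ratios belonged to marker genes of other cell types, and most of them rested on few barcodes. Reg1, Ctrb1 and Pnlip, with 0 HAMS UMIs, stood at least 33.5-fold, 33.0-fold and 23.4-fold higher in HAMSAB against a floor of 3 UMIs, but 1 HAMSAB barcode held 368 of the 391 acinar marker UMIs. Jchain, a plasma cell gene, had 1 UMI in HAMS and 83 in HAMSAB, 78 of them in 1 barcode. Spp1, which encodes osteopontin, was less concentrated, with 8 UMIs in 6 HAMS members and 77 in 20 HAMSAB members, at most 20 UMIs in 1 barcode. Its log2 ratio was 3.73 (2.68 to 4.99) in alpha members and 6.33 in beta barcodes, while delta barcodes held only 9 of its UMIs. With members holding 10 or more UMIs of another cell type's markers left out, 14 genes rather than 26 were 2-fold higher and 45 rather than 46 lower. Clu, a gene of the ductal marker list, had 352 HAMS UMIs of which 195 lie in 1 barcode and 91 HAMSAB UMIs of which 43 do. Its log2 ratio of -1.49 became 0.32 without the members left out by that filter, which did not count ductal markers. Before the filter, 20.2% of HAMS and 19.1% of HAMSAB members held 2 or more ductal marker UMIs.

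Apart from these, the leading named genes higher in HAMSAB members were Gpx3, Ttr and B2m. Gpx3 (chr11:54902453-54910377 in GRCm38), which encodes a secreted glutathione peroxidase, was 839 and 2082 CPM (log2 ratio 1.31, 1.08 to 1.54). It was detected in 38.8% and 65.2% of members. Ttr was 944 and 2134 CPM, a log2 ratio of 1.18 (0.96 to 1.40). B2m (chr2:122147686-122153083), the light chain of MHC class I, was 1616 and 3194 CPM, a log2 ratio of 0.98 (0.81 to 1.16). In beta and delta barcodes the ratio of B2m was 0.85 and 0.50, and that of Gpx3 was -1.72 and 0.54. The ratio of Ttr was 0.99 in beta barcodes, while delta barcodes held only 8 of its UMIs. When members were thinned to 400 UMIs, leaving out 74 HAMS and 30 HAMSAB members, the detected share remained higher in HAMSAB for Gpx3 (25.4% and 47.3%), Ttr (23.3% and 46.0%) and B2m (39.0% and 55.7%). Within members of Gcg at least 10% the log2 ratios were 1.16, 0.96 and 0.97, and within those from 3% to under 10% they were 0.80, 0.78 and 0.32, where the B2m interval (-0.04 to 0.66) includes 0. Leukocyte markers were 22.8 and 322 CPM in the first band and 458 and 671 CPM in the second. At lower levels, ratios above 2-fold were seen for Trp53inp1 (136 and 333 CPM), a p53-induced gene, Rac1 (68.2 and 183 CPM), a small GTPase gene, Tgoln1 (170 and 366 CPM), a trans-Golgi protein gene, and Zfp36l1 (58.0 and 169 CPM), an mRNA decay factor gene with 11 of its 36 HAMSAB UMIs in 1 barcode. In members with Gcg from 3% to under 10% the log2 ratio of Trp53inp1 was -0.11 (-1.59 to 1.19), on 20 and 7 UMIs.

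**Figure D4:**
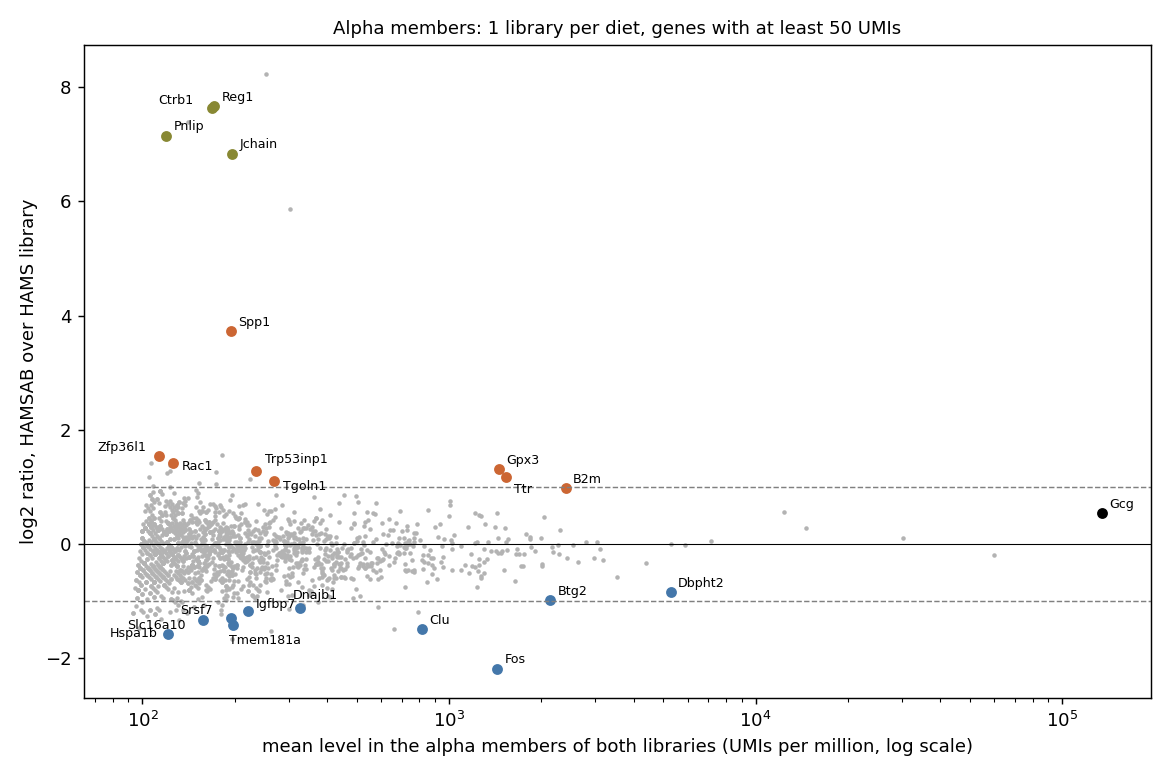
Log2 ratio of HAMSAB over HAMS in alpha members against the mean level in CPM (log axis) for 1523 genes with at least 50 UMIs; colored points are named genes, those in olive have over 90% of their HAMSAB UMIs in 1 barcode, and genes at 0 in one library are drawn with 0.5 UMI added to each sum. Fos lies lowest at -2.18 and Gpx3, Ttr and B2m lie near or above 1 at levels over 1000.

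Genes lower in the HAMSAB library were led by Fos, an AP-1 subunit induced within minutes of stimulation. It had 691 UMIs in HAMS and 111 in HAMSAB members, 2356 and 521 CPM, a log2 ratio of -2.18 (-2.48 to -1.89). After thinning to 400 UMIs it was detected in 44.4% of HAMS and 16.5% of HAMSAB members. The ratio was -1.81 within members of Gcg at least 10% and -2.57 in those below. Btg2, an antiproliferative gene also induced early, was 2836 and 1440 CPM, a log2 ratio of -0.98 (-1.17 to -0.79). The level of Fos also differed in the same direction in barcodes ruled beta (-0.80) and delta (-1.88), and in leukocyte-marked barcodes it was 395 and 257 CPM. The promoters of Fos and Btg2 are shown because their interval bounds nearest 0 were the lowest of the early gene list. They are the 250 bases before the RefSeq start in GRCm38.p6, chr12:85473640-85473889 on the plus strand for Fos and chr1:134079156-134079405 on the minus strand for Btg2. Capitals mark TATAAA on the gene's strand and TGACG on either strand, the core of the cyclic AMP response element TGACGTCA, of which it is a part.

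Fos: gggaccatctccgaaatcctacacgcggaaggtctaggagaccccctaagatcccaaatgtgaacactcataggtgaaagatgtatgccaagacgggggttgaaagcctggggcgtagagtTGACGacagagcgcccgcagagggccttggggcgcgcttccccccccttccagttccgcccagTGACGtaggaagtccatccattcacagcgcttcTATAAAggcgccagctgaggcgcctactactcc
Btg2: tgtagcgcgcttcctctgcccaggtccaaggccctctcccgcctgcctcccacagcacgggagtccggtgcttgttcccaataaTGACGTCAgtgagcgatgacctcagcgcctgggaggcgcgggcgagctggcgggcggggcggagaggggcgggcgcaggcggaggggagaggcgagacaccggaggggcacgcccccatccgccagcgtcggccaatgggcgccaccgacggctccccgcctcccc

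Fos holds TGACG from 129 to 125 and from 66 to 62 bases before the start and TATAAA from 33 to 28. Btg2 holds the full TGACGTCA from 166 to 159 bases before the start and no TATAAA. Of all promoter windows of this length, 17.8% hold TGACG on either strand and 1.55% hold TGACGTCA, and a match is a description of the letters only.

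Over the list of immediate early and dissociation genes, 18 of the 23 with at least 20 UMIs lay below 0 and 5 above, with a median of -0.26 beside -0.11 over all genes. Of the 20 with at least 50 UMIs, 6 had intervals below 0, beside 15.9% of all genes, among them Egr1 (2253 and 1773 CPM, log2 ratio -0.35) and Jun (1520 and 1027 CPM, -0.57). Klf6 was higher in HAMSAB, at 436 and 722 CPM (0.73, 0.38 to 1.08). The intervals of Fosb, at 1520 and 1360 CPM, and Jund, at 1786 and 1585 CPM, include 0. With at least 500 genes required per barcode (103 and 54 members), the list median was 0.11 and Egr1 was also at 0.11. Heat shock chaperone genes had a median of -0.16, with Dnajb1 at 447 and 206 CPM (-1.11, -1.64 to -0.61), and Hspa1b, which shares near-identical sequence with Hspa1a, at 181 and 61.0 CPM. Hspa1b had 17 of 53 HAMS UMIs in 1 barcode, and its ratio was 0.44 in members with Gcg at least 10%.

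Sterol genes were lower together in the HAMSAB members, a list assembled after some of its genes were seen among the lowest, so its counts are no independent evidence. Among the genes with intervals below 0, Msmo1, Hmgcs1, Insig1 and Sc5d, which act in sterol synthesis or its feedback control, stood at log2 ratios of -1.27, -0.91, -0.59 and -0.54. Of the 11 list genes with at least 20 UMIs, 10 lay below 0 and Sqle above, with a median of -0.60. Insig1, at 515 and 342 CPM in alpha members, had a ratio of -0.97 in beta barcodes and -0.22 in delta barcodes.

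The identity program showed no common direction. Among 21 alpha identity genes 13 lay above 0 and 8 below, with a median of 0.03. Irx2 was 177 and 220 CPM (0.31, -0.29 to 0.91), with an interval that includes 0. Tm4sf4 was 2546 and 2523 CPM. Cltrn, which encodes collectrin, was higher in HAMSAB, at 774 and 1238 CPM (0.68, 0.42 to 0.94). Slc7a2 was lower, at 542 and 366 CPM (-0.57, -0.98 to -0.17), while Slc38a5, a glutamine carrier of alpha cells, had 5 UMIs in HAMS and 21 in HAMSAB (2.53, 1.08 to 4.29).

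Granule genes were split. Of 29, 16 lay above 0 and 13 below (median 0.05), and of the 24 with at least 50 UMIs, 8 had intervals above 0 and 5 below, beside 6.89% and 15.9% of all genes. Chga was 9974 CPM in HAMS and 14725 CPM in HAMSAB (0.56, 0.49 to 0.64), while its ratio was -0.24 in beta and -0.21 in delta barcodes. The peptidase gene Cpe was 753 and 1266 CPM (0.75, 0.49 to 1.01), and Scg5, a chaperone of the Pcsk2 convertase, 1708 and 2373 CPM (0.47). Pcsk2 itself was 3208 and 3015 CPM (-0.09, -0.24 to 0.06). Lower in HAMSAB were Pcsk1n, an inhibitor of prohormone convertase 1, at 2004 and 1276 CPM (-0.65), and the exocytosis genes Cplx2 and Cadps at -0.46 and -0.76. Within members of Gcg from 3% to under 10% the ratio of Chga was 0.16 and that of Cpe 0.20, against 0.58 and 0.61 in the others. The ratio of Scg5 turned in that band, to -0.40 (-0.79 to -0.03), against 0.66 in the others.

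Unfolded protein response genes lay mostly above 0. 14 of the 16 did, with a median of 0.28, and 3 of the 13 with at least 50 UMIs had intervals above 0, beside 6.89% of all genes. These were Hspa5 (1145 and 1468 CPM, 0.36), Hsp90b1 (835 and 1168 CPM, 0.48) and Calr (556 and 825 CPM, 0.57). No gene of the list with at least 50 UMIs was 2-fold higher. All 5 MHC class II genes lay above 0 with a median of 0.62, led by H2-Ab1 at 331 and 544 CPM (0.72, 0.32 to 1.12), and 18 MHC class I genes had a median of 0.01. Leukocyte markers moved the same way, with all 8 detected in both libraries, and 2 or more of their UMIs were present in 4.94% of HAMS and 8.24% of HAMSAB members. Without those members the class II median was 0.54. Antioxidant genes had a median of -0.68 with Gpx3 and Selenop (0.49) above 0 and Gclm (-0.88) and Sod2 (-0.79) below, but in members under 600 UMIs the median was 0.21. The 13 mitochondrially encoded genes had a median of -0.06. Of 8 clock genes 1 lay above 0 (median -0.30), with Cry2 at 303 and 174 CPM (-0.81, -1.40 to -0.24).

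**Figure D5:**
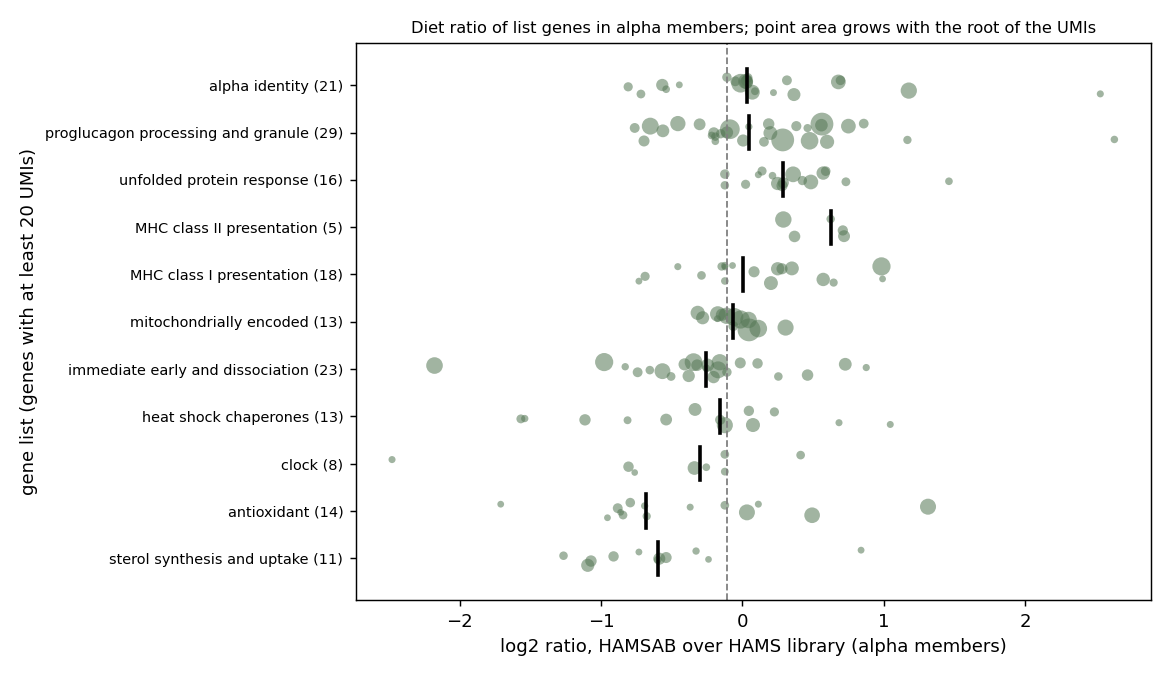
Log2 ratio of HAMSAB over HAMS for each gene with at least 20 UMIs (points, larger with more UMIs) in 11 gene lists in alpha members, with the list median (black bar) and the median over all genes (dashed line, -0.11). Unfolded protein response and MHC class II medians, 0.28 and 0.62, lie right of the dashed line and the antioxidant and sterol medians, -0.68 and -0.60, left of it; the antioxidant median was 0.21 in members under 600 UMIs.

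The authors deposited their own table for alpha cells, with 56 genes of which 13 have an adjusted p under 0.05. It was computed from cells of these same libraries, so it is not independent of the values above and is no test across mice. In the authors' deposited table Fos has a log2 fold change of -2.42, Gpx3 1.30, Ttr 0.93, B2m 0.99 and Btg2 -0.98. For Scg2 and Pim1 the sign here differs from the authors' deposited table, which gives 0.44 and -0.39 against -0.11 (-0.50 to 0.28) and 0.08 (-0.13 to 0.29) in the members. Neither has an adjusted p under 0.05 in the authors' deposited table.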

How the data were processed

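Per the file headers, the 2 matrices deposited by the authors, 1 per diet label, hold raw UMI counts for 32285 genes written by Cell Ranger 5.0.0. The submitters' processing notes name mm10, GRCm38 and Seurat; the cell calling settings were not given in the sources used here. From the authors' deposited alpha table, log2 fold changes and p-values computed from cells were copied and not recomputed.

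The members and lists were chosen with earlier results of these data known. Barcodes were classed by the hormone shares given above, and UMIs were summed per class and library. Diet ratios carry exact conditional binomial 95% intervals, with 0.5 UMI added to both sums where one is 0, and shares carry Clopper-Pearson intervals. Diet counts use genes with at least 50 UMIs, and list medians those with at least 20. Classes were compared with edgeR 4.0.16 (glmQLFit, TMM, filterByExpr, library term, Benjamini-Hochberg adjustment, R 4.3.3), with DESeq2 1.42.0 as an alternative. Both computations were tested on simulated data.

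Genes were named by rule. For diet these were the 12 highest and 12 lowest by the interval bound nearest 0, leaving out hormones, mitochondrial, ribosomal, Gm, Rik, haemoglobin and receptor segment genes and those under 0.1 of their level in another class. For classes these were the 12 with the largest smallest difference above all 3 classes, up to 6 below all 3, and the 8 largest each way against gamma. Up to 8 members per list by UMIs, the 2 highest and 2 lowest by diet ratio, markers, and up to 4 genes each way from the authors' deposited table were added. Ddit3, Hyou1, mt-Nd1, Pim1, Scg2 as a sign difference, and the sterol list were chosen after their values were seen. A few genes that the rule names are not reported here. Promoters are RefSeq sequences of GRCm38.p6.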

Additional observations from a re-analysis of the deposited data

Results flagged for a closer look

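The check for opposite diet ratios covered only the genes named by rule as highest and lowest for diet. For 2 of them, the ratio and its whole interval pointed in opposite directions in alpha members and in beta or delta barcodes. Genes outside this check did so too. Among them, Chga had log2 ratios of 0.56 in alpha members, -0.24 in beta and -0.21 in delta barcodes. Egr1 had -0.35 in alpha members and 0.34 in beta barcodes. With 1 library per diet, the difference between classes was not tested. Gpx3 had a log2 ratio of HAMSAB over HAMS of 1.31 in alpha members and -1.72 (-2.33 to -1.15) in beta barcodes, where it stood at 329 and 99.8 CPM. Srsf7, which encodes a splicing factor, had -1.29 (-2.02 to -0.62) in alpha members, at 276 and 113 CPM, and 0.79 (0.08 to 1.51) in delta barcodes, at 110 and 190 CPM.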

How the results depend on the processing

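Diet values have no replicate check, and medians of 599 and 655 UMIs per member limit what can be detected of low genes. Of 167 list medians under an alternative, 131 moved by less than 0.2 (log2). Of 469 single-gene diet ratios 389 stayed within the interval of the reported value, and of 131 class differences within 1 library 93 moved by less than 1 (log2). The 26 genes 2-fold higher and 46 lower in HAMSAB became 12 and 25 with at least 500 genes per barcode, 7 and 14 with at least 100 UMIs per gene, 131 and 237 with at least 20, and 3 and 15 in members under 600 UMIs. The number higher was 16 without members with leukocyte RNA and 14 without members with 10 UMIs of another cell type. With Gcg at least 10%, 28 were lower and the share of alpha members differed by -0.11 percentage points. With at least 500 genes the medians of the early gene, short-chain fatty acid receptor and proliferation lists turned to 0.11, 0.49 and 0.47, and Egr1 to 0.11. With Gcg at least 10% the proliferation median was 0.54, Hspa1b 0.44 and Atf3 0.11. Without members with 10 UMIs of another cell type Clu was 0.32. In members under 600 UMIs the antioxidant and proliferation medians were 0.21 and 0.53, Jchain -0.77, Hspa1b 0.81, H2-K1 -0.16 and Sst 0.81. The cause of these turns was not tested.

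Under DESeq2 the class counts higher and lower were 108 and 181 against beta, 81 and 105 against delta, and 20 and 9 against gamma. Against gamma they were 94 and 7 with no filter, 37 and 33 without TMM, and 39 and 10 without barcodes with 10 UMIs of another cell type. With Gcg at least 10%, 286 were lower than in beta and 10 lower than in gamma, and without leukocyte RNA 10 were lower than in gamma. Leaving out 1 library gives no count, only differences within the other library, and none where both sums hold at most 3 UMIs. The difference of Reg1 against delta ranged from -2.87 within HAMS (0 and 6 UMIs) to 3.56 within HAMSAB. Among the 131 differences, no other that had passed in the fit changed sign. Jchain did not pass against beta, and its difference was -2.69 within HAMS and 0.13 within HAMSAB. The alternatives by UMIs of another cell type and by depth were chosen after seeing the data. No paired analysis was possible because each diet has 1 library; the class fit has the library as its term.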
